A study of Mus musculus with 12 samples.

Results

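The dual-specificity phosphatase (DUSP) genes that encode phosphatases of the MAP kinases were examined in the cortex and hippocampus of mice after cranial irradiation. They were taken as the rows whose gene symbol was *Dusp1*, *Dusp2*, *Dusp3*, *Dusp4*, *Dusp5*, *Dusp6*, *Dusp7*, *Dusp8*, *Dusp10* or *Dusp16*. All 10 were found among the 23183 genes listed. The libraries came from male C57BL/6 mice that had a sham irradiation (Con) or a single 10 Gy dose of X-rays to the whole brain (IR), and RNA was taken 3 months later. The mice were bought at 7 weeks of age and kept for 1 week before irradiation, and the labels give no other agent or allele for any group. Sham and irradiated mice of the study were also put through the open-field and elevated plus maze tests in the chronic phase, and whether the sequenced mice were among them, and how long before RNA was taken, is not given in the sources used here. RNA sequencing of whole tissue gave 3 Con and 3 IR libraries from each region, 12 in all. The labels give a library number but do not say that each library is a separate mouse, so p-values measure the spread between these libraries, which may in part be technical. The comparison of IR with Con in each region asks which of these genes differed in the chronic phase after irradiation, and the interaction asks whether that difference was unlike between regions.

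MAP kinases (ERK, JNK and p38) are switched on by phosphorylation of a threonine and a tyrosine in their activation loop, and DUSP enzymes remove both phosphates. Several DUSP genes are themselves transcribed in response to MAP kinase signaling, which makes them part of a negative feedback loop. In neurons *Dusp1*, *Dusp4*, *Dusp5* and *Dusp6* are known as genes that follow synaptic activity and growth factors. The genes were grouped by the usual classes: the inducible nuclear phosphatases (*Dusp1*, *Dusp2*, *Dusp4* and *Dusp5*), the cytoplasmic ERK-selective phosphatases (*Dusp6* and *Dusp7*), the p38/JNK-selective phosphatases (*Dusp8*, *Dusp10* and *Dusp16*), and *Dusp3*, a small phosphatase without the MAP kinase docking domain.

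The sequences just upstream of the start site are shown for *Dusp6*, *Dusp1* and *Dusp5*, which had the IR libraries of the cortex above the Con libraries, and for *Dusp8*, which did not. The sequence of *Dusp10*, whose IR libraries were also above the Con libraries, is not printed, and none of the capitalized motifs were matched in it. They are RefSeq promoters of GRCm38.p6 (the same build as mm10), read 5′ to 3′ on the strand of the gene and cut where a coding transcript begins. The table held 9 of the 10 genes, all but *Dusp4*. Capitals mark matches, on either strand, to the cyclic AMP response element (TGACGTCA) and its shorter form (TGACG), the E-box (CACGTG) and the CArG box, which serum response factor binds.
*Dusp6*, chr10:99262981-99263230, plus strand: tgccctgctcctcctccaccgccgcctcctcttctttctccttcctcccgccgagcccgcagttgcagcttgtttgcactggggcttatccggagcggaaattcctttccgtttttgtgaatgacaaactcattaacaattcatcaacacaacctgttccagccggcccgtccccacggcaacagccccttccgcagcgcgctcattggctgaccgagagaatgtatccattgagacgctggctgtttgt
*Dusp1*, chr17:26508520-26508722, minus strand: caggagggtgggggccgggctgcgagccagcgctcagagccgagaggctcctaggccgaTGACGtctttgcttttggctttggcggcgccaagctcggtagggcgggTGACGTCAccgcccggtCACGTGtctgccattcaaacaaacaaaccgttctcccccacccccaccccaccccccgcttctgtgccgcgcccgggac
*Dusp5*, chr19:53528895-53529108, plus strand: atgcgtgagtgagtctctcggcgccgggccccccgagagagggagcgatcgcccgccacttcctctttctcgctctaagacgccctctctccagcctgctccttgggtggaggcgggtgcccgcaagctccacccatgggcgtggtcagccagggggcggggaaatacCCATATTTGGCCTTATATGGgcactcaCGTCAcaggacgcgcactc
*Dusp8*, chr7:142095285-142095534, minus strand: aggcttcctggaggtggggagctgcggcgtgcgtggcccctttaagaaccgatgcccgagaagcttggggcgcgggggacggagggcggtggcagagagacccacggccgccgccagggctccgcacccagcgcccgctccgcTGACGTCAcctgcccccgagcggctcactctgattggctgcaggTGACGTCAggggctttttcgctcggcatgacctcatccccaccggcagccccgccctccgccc

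The *Dusp1* sequence held 1 full cyclic AMP response element, 1 E-box and 1 match to the shorter form outside the full element. The *Dusp5* sequence held 2 adjoining CArG boxes and 1 match to the shorter form. The *Dusp8* sequence held 2 full elements, although its expression in the cortex overlapped between IR and Con. None of these letters were found in the 250 bases of *Dusp6*. Among the 32851 promoters in the table, 1.55% held the full element, 17.8% the shorter form, 6.02% the E-box and 1.47% the CArG box. The only other matches to these motifs were 1 E-box in *Dusp2* and 1 match to the shorter form in *Dusp16*. The shorter form lies within the full element, so their matches overlap. Motifs of AP-1 (TGANTCA, 6.75% of promoters), EGR (GCGTGGGCG, 0.536%) and ETS factors (CCGGAA, 3952 promoters) were not matched in any of the 9 promoters. The GC box (GGGCGG, 32.7%) was matched in 7 of them and is not capitalized. These are matches of letters and do not show binding.

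In GENCODE M21 the genes lie on 10 chromosomes. *Dusp6*, with no overlapping gene, spans chr10:99263231-99267489, and *Dusp4*, also with none, spans chr8:34807297-34819894. *Dusp1* spans chr17:26505590-26562128 on the minus strand and overlaps *Ergic1*, a coding gene on the other strand. *Dusp5* spans chr19:53529109-53542431 and overlaps an antisense gene. *Dusp8*, *Dusp10*, *Dusp16* and *Dusp3* also overlap genes on the other strand. The kit keeps strand, but whether strand was used in counting is not stated, so reads of such partners may not have been told apart.

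FPKM scales the fragments of a gene by its length and by the size of the library, so levels of different genes can be set side by side. In the Con cortex *Dusp3* had the highest mean of the 10 genes (54.4 ± 4.14 FPKM, SD, n = 3). *Dusp8* followed at 47.7 ± 0.855 FPKM and *Dusp7* at 30.1 ± 2.65 FPKM. The means of *Dusp1* (20.9 ± 8.04 FPKM) and *Dusp6* (19.4 ± 3.39 FPKM) lay within their spread. *Dusp5* (4.56 ± 1.10 FPKM), *Dusp4* (3.29 ± 0.751 FPKM) and *Dusp16* (3.23 ± 0.132 FPKM) also lay within their spread. *Dusp10* (2.13 ± 0.212 FPKM) and *Dusp2* (0.889 ± 0.165 FPKM) were lowest. In the IR cortex *Dusp6* (34.5 ± 1.56 FPKM) moved from rank 5 to rank 3, above *Dusp1* (31.9 ± 3.26 FPKM) and *Dusp7* (31.1 ± 0.599 FPKM), though *Dusp6* and *Dusp1* lay within their spread. The 10 genes summed to 176 to 199 FPKM in the Con libraries of the cortex and to 216 to 228 FPKM in the IR libraries. In the hippocampus the sums were 151 to 159 FPKM in Con and 146 to 169 FPKM in IR.

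**Figure D1:**
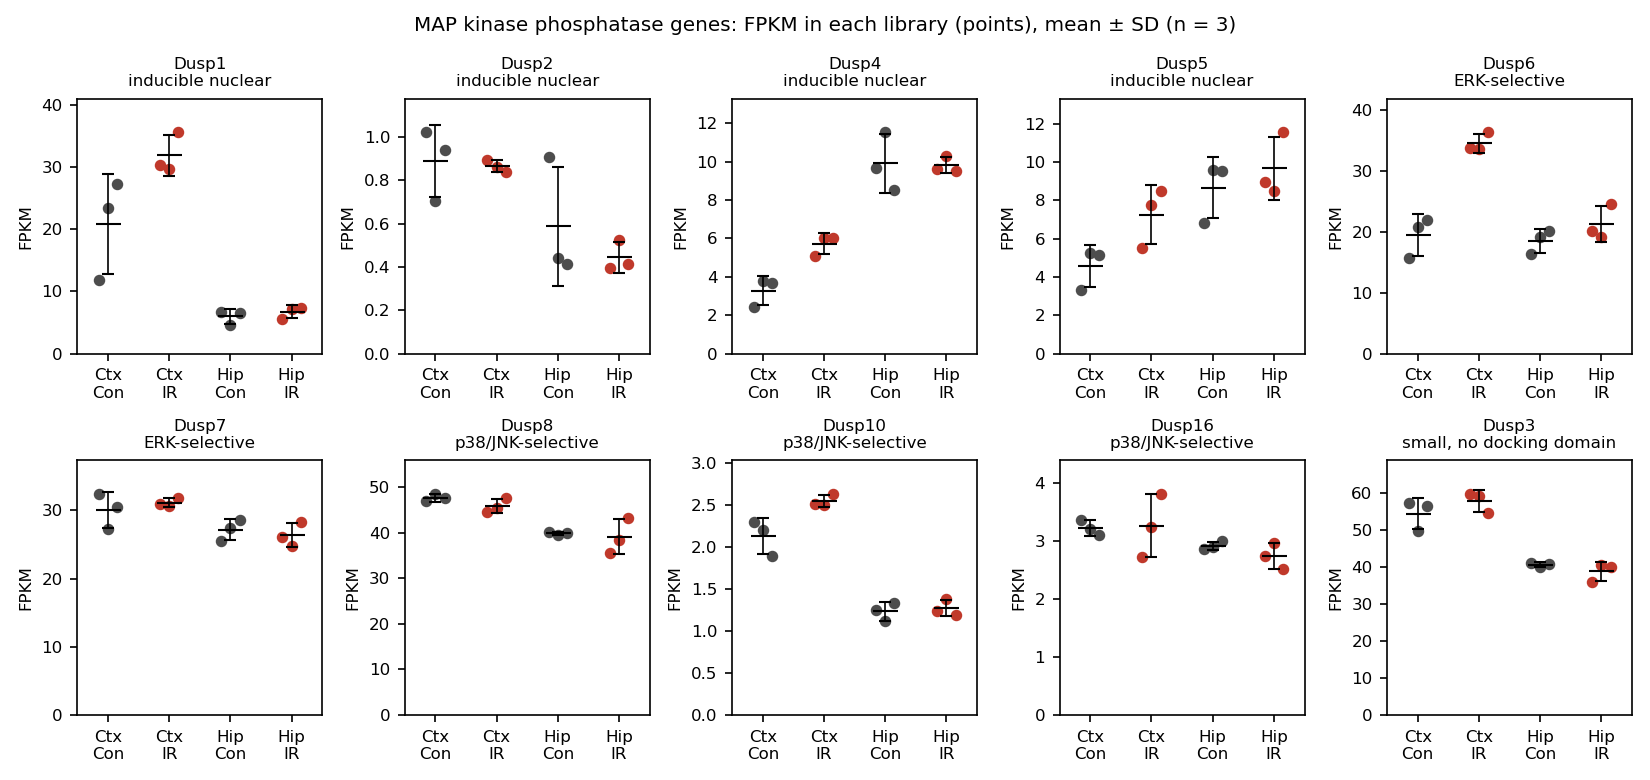
FPKM of each MAP kinase phosphatase gene (vertical axis, from 0) in the 12 libraries, grouped as cortex (Ctx) and hippocampus (Hip), Con in grey and IR in red; bars give the mean ± SD of 3 libraries. *Dusp6* and *Dusp4* in the cortex show IR points above every Con point, while *Dusp7*, *Dusp8*, *Dusp16* and *Dusp3* overlap.

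Of the 10 genes, 1 rose in the cortex after irradiation at an adjusted p under 0.05 (limma on log2(FPKM + 1), Benjamini-Hochberg over the 14065 genes tested there), and that gene was *Dusp6*, the ERK-selective cytoplasmic phosphatase. Among all genes tested in the cortex, 0.725% passed this threshold, and 0.562% passed it with higher values in IR. None of the 10 passed with lower values. In 5 of the 10 (*Dusp1*, *Dusp4*, *Dusp5*, *Dusp6* and *Dusp10*) every IR library was above every Con library, against 11.2% of all genes tested. The median log2 fold change of the 10 genes was 0.14, beside 0.0016 over all genes tested. Unadjusted p-values under 0.05 with higher values in IR were found for 3 of the 10 and for 8.16% of all genes. The study used a fold change of 1.5 and an unadjusted p of 0.05 as its criterion. With the fitted fold of FPKM + 1, *Dusp6* and *Dusp4* passed it, against 0.483% of all genes in either direction. With the ratio of mean FPKM as the fold, *Dusp5* passed as well (ratio 1.59), against 1.87% of all genes. The study's own list of genes changed in either region held *Dusp1*, *Dusp4*, *Dusp5* and *Dusp6*. It gave *Dusp1* a fold change of 1.529 in the cortex. Here *Dusp1* had a ratio of 1.53 there but an unadjusted p of 0.0873 in limma, so it did not pass.

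*Dusp6* measured 15.6, 20.7 and 22.0 FPKM in the Con libraries 1 to 3 of the cortex and 33.7, 33.6 and 36.3 FPKM in the IR libraries. The groups did not overlap, and the IR libraries lay close together. The log2 fold change was 0.81 ± 0.11 (SE), a 1.75-fold rise on this scale, with an adjusted p of 0.0152 in limma. An estimated 686 to 1660 fragments per library lay behind these values, so counting error was 3.40% of the mean in Con and 2.51% in IR, below the observed coefficients of variation of 17.4% and 4.52%. The call was lost when any 1 of the 3 IR libraries was left out (adjusted p of 0.0549 to 0.0765 in limma, log2 fold change of 0.78 to 0.83), and also without the filter on low values (0.0630) or without the intensity trend and robust prior (0.0588).

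The other ERK-selective gene, *Dusp7*, encodes a cytoplasmic phosphatase close in sequence to *Dusp6*. It measured 32.5, 27.2 and 30.5 FPKM in Con and 30.9, 30.7 and 31.8 FPKM in IR, so the groups overlapped. Its log2 fold change was 0.05, with a 95% interval of -0.10 to 0.20 and an adjusted p of 0.777 in limma. The interval of *Dusp6*, 0.57 to 1.06, lay wholly above it.

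*Dusp4* encodes a nuclear phosphatase of ERK and JNK. It measured 2.42, 3.76 and 3.68 FPKM in Con and 5.08, 6.04 and 6.05 FPKM in IR. All IR libraries were above all Con libraries, and the lowest was Con 1. The log2 fold change was 0.66 ± 0.13 (SE), with an unadjusted p of 5.19e-04 and an adjusted p of 0.0618 in limma, which misses the threshold. With all 12 libraries in a single fit, so that the regions shared 1 estimate of the spread, the adjusted p in limma was 0.0402, while without the filter on low values it was 0.150, and with a library left out it was 0.0656 to 0.175.

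*Dusp5* encodes a nuclear phosphatase that acts on ERK. It measured 3.29, 5.24 and 5.14 FPKM in Con and 5.51, 7.74 and 8.48 FPKM in IR. The groups did not overlap, though IR 1 was only just above Con 2. The log2 fold change was 0.57 ± 0.18 (SE), with an adjusted p of 0.210 in limma.

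*Dusp1*, the classical immediate-early phosphatase, acts on p38, JNK and ERK in the nucleus. It measured 11.9, 23.4 and 27.4 FPKM in Con and 30.4, 29.7 and 35.7 FPKM in IR. The groups did not overlap, but Con 1 lay far below the other Con libraries. The log2 fold change was 0.66 ± 0.32 (SE), with an adjusted p of 0.433 in limma. Without Con 1 it was 0.32, with an unadjusted p of 0.00767 and an adjusted p of 0.196.

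*Dusp2*, best known from activated lymphocytes, was the lowest of the genes, at 1.02, 0.705 and 0.940 FPKM in Con and 0.895, 0.863 and 0.839 FPKM in IR. With an estimated 18 to 26 fragments per library, counting error alone was about 20.9% of the mean, which limits what can be detected. The observed coefficients of variation were 18.6% in Con and 3.23% in IR. What size of difference could be detected at this depth was not tested. The log2 fold change of *Dusp2* was -0.01, with a 95% interval of -0.24 to 0.21, and it turned to 0.0086 with quantile normalization.

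None of the p38/JNK-selective genes passed the test in the cortex. *Dusp10*, a phosphatase of p38 and JNK in cytoplasm and nucleus, measured 2.30, 2.21 and 1.89 FPKM in Con and 2.51, 2.51 and 2.64 FPKM in IR. All IR libraries were above all Con libraries, with a log2 fold change of 0.18 ± 0.09 (SE) and an adjusted p of 0.393 in limma. *Dusp8*, a neuron-enriched phosphatase of JNK and p38, measured 46.9, 48.6 and 47.7 FPKM in Con and 44.7, 45.4 and 47.7 FPKM in IR. Its groups overlapped, and the 95% interval of its log2 fold change ran from -0.17 to 0.06. *Dusp16*, a cytoplasmic phosphatase of JNK, measured 3.37, 3.21 and 3.11 FPKM in Con and 2.73, 3.25 and 3.82 FPKM in IR, with IR libraries on both sides of Con and a log2 fold change of 0.01 (95% interval -0.23 to 0.24). *Dusp3* measured 57.1, 49.6 and 56.5 FPKM in Con and 59.8, 59.1 and 54.5 FPKM in IR, with a log2 fold change of 0.09 (95% interval -0.06 to 0.24). The median log2 fold change was 0.62 over the 4 inducible nuclear genes, and 0.36 without Con 1. Over the 3 p38/JNK-selective genes it was 0.0053, and -0.081 to 0.098 when a library was left out. The 2 ERK-selective genes lay far apart, at 0.81 and 0.05, so no median is given for them. The classes were not tested against each other.

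**Figure D2:**
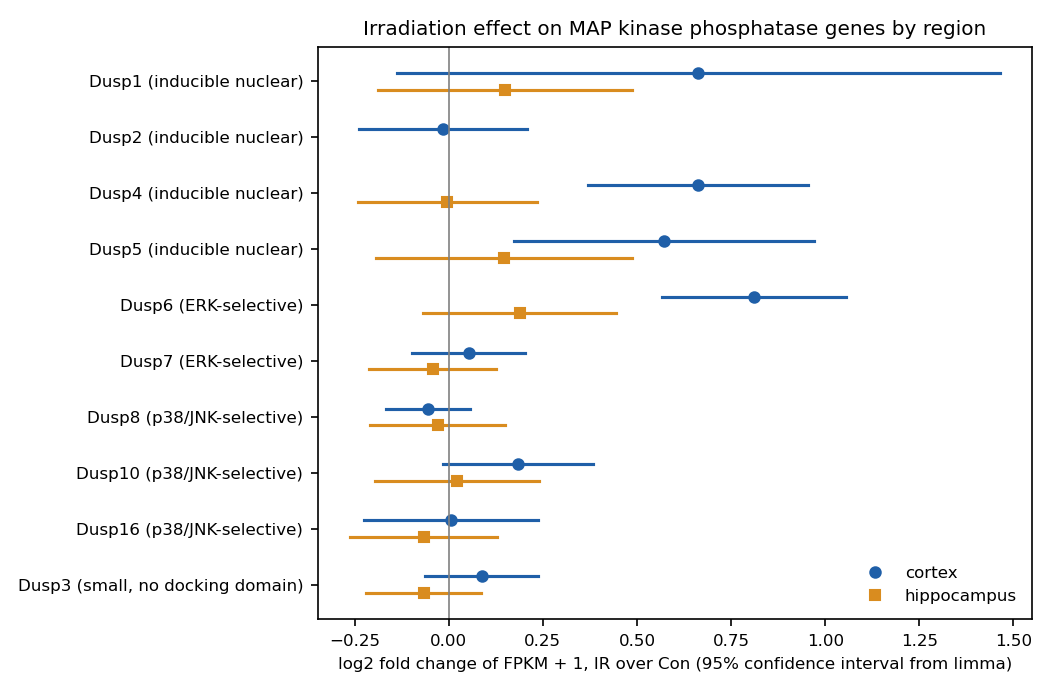
Log2 fold change of FPKM + 1, IR over Con (horizontal axis), for each gene in the cortex (blue circles) and hippocampus (orange squares), with the 95% confidence interval from limma; *Dusp2* was not tested in the hippocampus. In the cortex the intervals of *Dusp4*, *Dusp5* and *Dusp6* lie above 0, and in the hippocampus every interval spans 0.

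In the hippocampus none of the 10 genes passed an adjusted p under 0.05 in limma, and none had an unadjusted p under 0.05, where 0.0285% of the 14043 genes tested there passed the former and 13.9% the latter. The filter was passed by 9 of the 10, all but *Dusp2*. No gene of the 9 had all IR libraries above or all below the Con libraries, against 10.5% of all genes above and 9.36% below. None met the 1.5-fold criterion, which 0.527% of all genes did. *Dusp6* measured 16.3, 19.2 and 20.1 FPKM in Con and 20.1, 19.1 and 24.6 FPKM in IR. IR 1 was level with the highest Con library (20.12 against 20.06 FPKM), IR 3 was above it and IR 2 lay within the range of Con, and the log2 fold change was 0.19 (95% interval -0.07 to 0.44; adjusted p of 0.461). *Dusp4* measured 9.69, 11.5 and 8.52 FPKM in Con and 9.64, 10.3 and 9.53 FPKM in IR, so IR lay within the range of Con. The log2 fold change of *Dusp4* there was -0.0038 (95% interval -0.24 to 0.23), and 0.0033 after quantile normalization.

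*Dusp5* measured 6.83, 9.60 and 9.53 FPKM in the Con hippocampus and 8.93, 8.50 and 11.6 FPKM in IR. Only IR 3 was above all Con libraries, and the log2 fold change was 0.15 (95% interval -0.19 to 0.49). *Dusp1* measured 6.68, 4.65 and 6.58 FPKM in Con and 5.50, 7.23 and 7.39 FPKM in IR, with a log2 fold change of 0.15 (95% interval -0.19 to 0.49). With a library of the hippocampus left out, the log2 fold change ran from 0.0024 to 0.22 for *Dusp5*, from 0.0056 to 0.27 for *Dusp1* and from 0.084 to 0.26 for *Dusp6*. *Dusp2* was at 0.416 to 0.906 FPKM in Con and 0.395 to 0.526 FPKM in IR. The remaining genes differed by at most 0.07 in either direction on the log2 scale: -0.04 for *Dusp7*, -0.03 for *Dusp8*, 0.02 for *Dusp10*, -0.07 for *Dusp16* and -0.07 for *Dusp3*. Their groups overlapped. *Dusp8* ranged from 39.5 to 40.1 FPKM in Con and from 35.7 to 43.3 FPKM in IR. *Dusp3* ranged from 39.9 to 41.2 FPKM in Con and from 35.9 to 40.4 FPKM in IR. For both genes the spread was wider among IR than among Con libraries. *Dusp7* was at 25.5 to 28.6 FPKM in Con and 24.8 to 28.2 FPKM in IR. *Dusp10* was at 1.12 to 1.34 and 1.195 to 1.38 FPKM, and *Dusp16* at 2.86 to 3.00 and 2.53 to 2.98 FPKM.

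The interaction term, the log2 fold change in the hippocampus minus that in the cortex, was below 0 for 9 of the 10 genes and above 0 for *Dusp8*. Its median was -0.16 over the 10 genes, beside -0.014 over all genes tested. The signs for *Dusp2*, *Dusp8* and *Dusp16* could turn when a library was left out. None of the 10 genes passed an adjusted p under 0.05 in limma over the 14577 genes tested, of which 0.0823% did. The labels do not say whether libraries of the same number in both regions came from 1 mouse, and the fit took them as independent. *Dusp4* had an interaction of -0.67 ± 0.18 (SE; unadjusted p of 0.00275, adjusted p of 0.247) and *Dusp6* one of -0.62 ± 0.17 (SE; unadjusted p of 0.00326, adjusted p of 0.261). Unadjusted p-values under 0.05 with a lower effect in the hippocampus were found for these 2 genes and for 5.58% of all genes. *Dusp1* (-0.51) and *Dusp5* (-0.42) had 95% intervals that spanned 0, and without Con 1 of the cortex they were -0.17 and -0.25. Without Con 3 of the hippocampus the adjusted p of *Dusp4* in limma was 0.0432 and that of *Dusp6* was 0.112, and the count over all genes went from 12 to 480. It was 0 without Con 1 or any IR library of the cortex, or without IR 1 or IR 2 of the hippocampus. The difference between regions in the effect on *Dusp6* was not called, although *Dusp6* was called in the cortex alone.

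Levels in the regions are given side by side without a test, since the names of the value columns differ by region and the regions may have been processed separately. In Con libraries *Dusp1* averaged 20.9 FPKM in the cortex and 5.97 ± 1.14 FPKM in the hippocampus. *Dusp4* averaged 3.29 and 9.92 ± 1.53 FPKM, and *Dusp5* 4.56 and 8.65 ± 1.58 FPKM. The IR level of *Dusp4* in the cortex, 5.72 ± 0.554 FPKM, lay below its Con level in the hippocampus. *Dusp6* averaged 19.4 FPKM in the cortex and 18.5 ± 1.99 FPKM in the hippocampus, within their spread. *Dusp10* averaged 2.13 and 1.24 ± 0.112 FPKM, *Dusp3* 54.4 and 40.6 ± 0.622 FPKM, and *Dusp8* 47.7 and 39.9 ± 0.332 FPKM. *Dusp7* was at 30.1 and 27.2 ± 1.54 FPKM, and *Dusp16* at 3.23 and 2.92 ± 0.0731 FPKM. *Dusp8* and *Dusp3* were the highest of the genes in both regions.

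The 4 genes with the largest log2 fold changes in the cortex also varied together from library to library. After the mean of each region was removed, Pearson's r over the 12 libraries was 0.90 between *Dusp5* and *Dusp6*, 0.85 between *Dusp4* and *Dusp6* and 0.80 between *Dusp1* and *Dusp6*. With the mean of each group removed, which takes out the difference between IR and Con, the values were 0.87, 0.46 and 0.66. Between *Dusp6* and *Dusp7*, r was 0.24 with region means removed and 0.15 with group means removed. Between *Dusp6* and *Dusp8* it was -0.08 and 0.53, so by the second measure *Dusp8* was as near to *Dusp6* as *Dusp4* was. The points share libraries and 2 groups per region, and r is given as a description.

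With the region means removed, which keeps the difference between IR and Con, the genes most like *Dusp6* among 13649 genes were *Arc* (0.97), *Fosl2* (0.97), *Midn* (0.97), *Egr1* (0.96) and *Dnajb5* (0.96). With the group means removed, r with *Dusp6* was 0.96 for *Arc* and 0.76 for *Dnajb5*, the highest and lowest of these 5. *Arc*, *Fosl2* and *Egr1* are immediate-early genes of neurons. *Arc* measured 26.4, 73.2 and 86.6 FPKM in the Con cortex and 179, 162 and 192 FPKM in the IR cortex. By the first measure, those most like *Dusp4* were *Nr4a3* (0.93), *Trib1* (0.91), *Crem* (0.91), *Midn* (0.90) and *Ptgs2* (0.90), and with the group means removed their r ran from 0.60 to 0.78. *Per1* (0.96), *Zfp276* (0.95), *Dpy19l3* (0.94), *Egr1* (0.93) and *Nr4a1* (0.93) were nearest to *Dusp5* (0.88 to 0.94 with the group means removed). For *Dusp1* they were *Calhm2* (0.92), *Fgfr1* (0.91), *Ier2* (0.89), *Fosl2* (0.89) and *Nr4a3* (0.87), with 0.80 to 0.86 after the group means were removed.

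**Figure D3:**
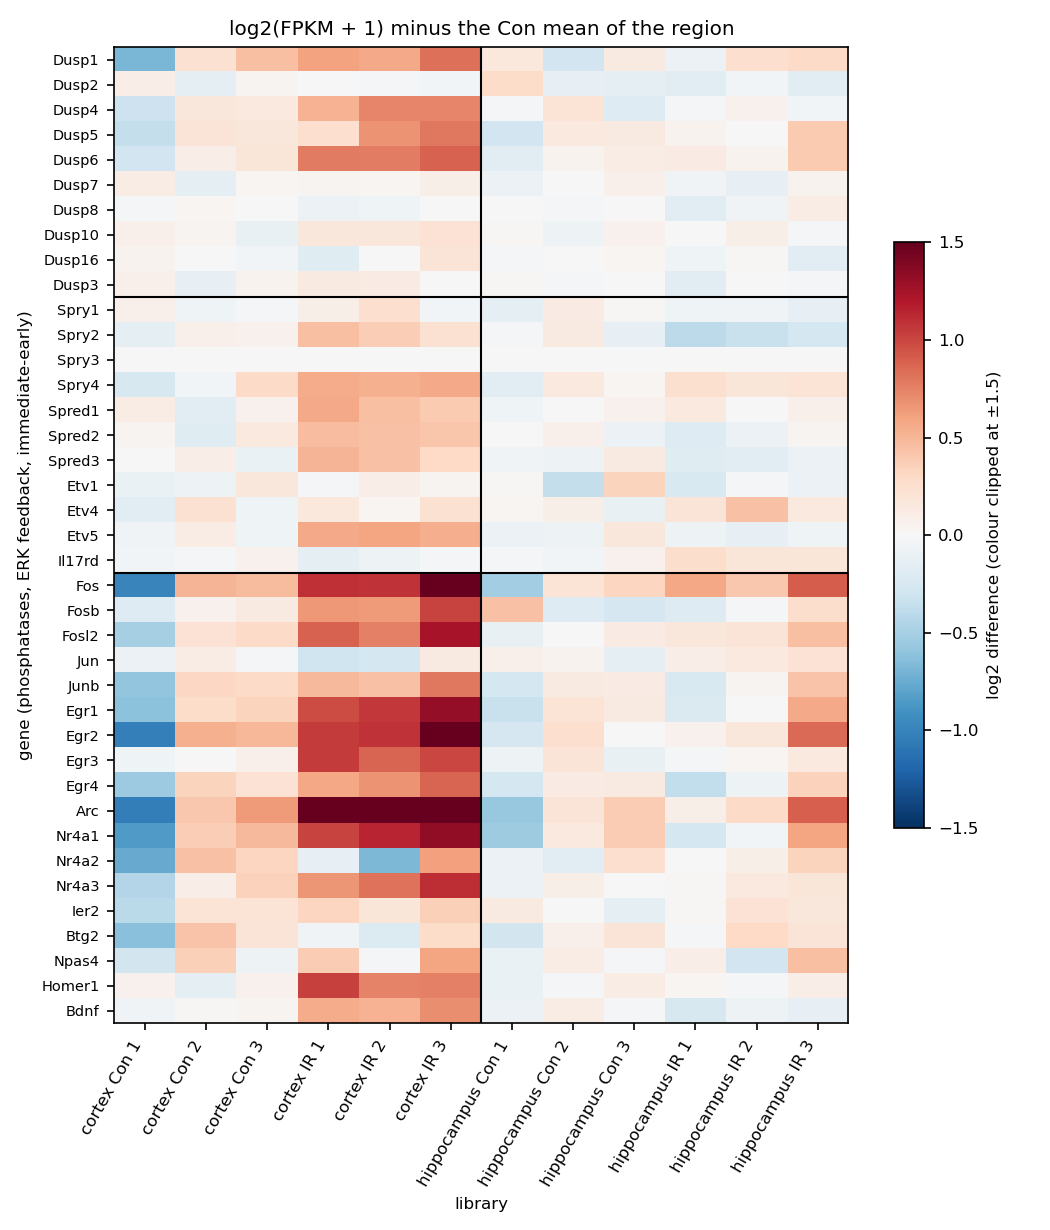
Log2(FPKM + 1) of each library minus the mean of the Con libraries of its region, for the phosphatase genes (top), ERK feedback genes (middle) and immediate-early genes (bottom); columns are the 12 libraries, and colour is clipped at ±1.5. Con 1 of the cortex is low, and the IR libraries of the cortex are high, for *Dusp1*, *Dusp4*, *Dusp5*, *Dusp6* and most immediate-early genes.

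Among the Con libraries of the cortex, Con 1 stood apart in these genes. It was below both other Con libraries for 17 of 18 immediate-early genes and for 3 of the 4 inducible nuclear phosphatases, and also for *Dusp6*. Over all genes tested it was below both for 3969 of 14065, and over the 10 phosphatase genes it was below both for 5 and above both for 5. The 18 immediate-early genes summed to 260 FPKM in Con 1 of the cortex, 455 and 472 FPKM in Con 2 and Con 3, and 709 to 861 FPKM in IR. In the hippocampus they summed to 265, 325 and 322 FPKM in Con 1 to 3 and 292 to 397 FPKM in IR. Con 1 of the hippocampus was also below both other Con libraries there for 13 of 18 immediate-early genes. It was below both for 4 of 9 phosphatase genes tested, *Dusp6* among them, and for 4613 of all 14043 genes tested. Without Con 1 of the cortex the log2 fold changes in the cortex were 0.67 for *Dusp6* (adjusted p of 0.00401 in limma), 0.51 for *Dusp4* (0.0696) and 0.40 for *Dusp5* (0.289). The criterion of a 1.5-fold change, on the fitted fold of FPKM + 1, with an unadjusted p under 0.05 was then met by 1 of the 10 genes, in place of 2.

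Other parts of the MAP kinase pathways were described from lists. Of the ERK feedback genes (Sprouty, Spred and ETV genes and *Il17rd*), 4 of 10 tested rose in the cortex at an adjusted p under 0.05 in limma and none fell. Among all genes tested in the cortex, 0.562% rose at this threshold. *Etv5*, an ETS transcription factor induced by ERK signaling, measured 26.5, 30.0 and 26.4 FPKM in Con and 41.6, 42.2 and 40.6 FPKM in IR (log2 fold change 0.57 ± 0.06 (SE), adjusted p of 0.00447). *Spred1*, *Spred2* and *Spred3*, which inhibit the activation of RAF, had log2 fold changes of 0.47, 0.44 and 0.42 (adjusted p of 0.0359, 0.0444 and 0.0461). *Spry4* and *Spry2* had 0.55 and 0.35 (adjusted p of 0.0929 and 0.0916). In the hippocampus *Spry2* had -0.33 (unadjusted p of 0.00348, adjusted p of 0.247 in limma), with all IR libraries below all Con libraries, and its interaction was -0.67 (adjusted p of 0.0568). Over the 10, the cortex had a median of 0.38, while the hippocampus had a median of -0.08 and no gene that passed. The count of 4 in the cortex was 1 when any IR library was left out and 2 without Con 1, and it was 1 without the filter on low values.

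In the ERK arm itself, from RAS to ERK and RSK kinases, 0 of 20 genes passed an adjusted p under 0.05 in limma in the cortex, where 3 had an unadjusted p under 0.05 (2 higher and 1 lower, against 14.1% of all genes in either direction), and the median log2 fold change was -0.01. The smallest p-values there were for *Rps6ka3*, *Rps6ka2* and *Mapk7*, with log2 fold changes of 0.25, 0.19 and -0.20. In the JNK arm, 0 of 13 genes passed in the cortex, and the median was 0.03. There, 1 gene (*Map3k13*, 0.29) had an unadjusted p under 0.05, against 14.1% of all genes in either direction. In the p38 arm 1 of 10 rose in the cortex, against 0.562% of all genes, and that gene was *Mapk11*, which encodes p38 beta. It measured 21.5, 22.8 and 19.4 FPKM in Con and 32.4, 30.1 and 30.2 FPKM in IR (log2 fold change 0.52 ± 0.07 (SE), adjusted p of 0.0124 in limma). Unadjusted p-values under 0.05 were found for 2 of the 10, both with higher values in IR, against 8.16% of all genes with higher values. The second was *Map2k3*, which encodes a kinase of p38 (log2 fold change 0.26, unadjusted p of 0.00678, adjusted p of 0.181 in limma).

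Of the other dual-specificity and MAP kinase phosphatases, 0 of 13 tested passed an adjusted p under 0.05 in limma in the cortex, where 4 had an unadjusted p under 0.05 (2 higher and 2 lower, against 14.1% of all genes). *Dusp12* measured 7.05 to 8.15 FPKM in Con and 4.57 to 6.69 FPKM in IR of the cortex. Hippocampal values were 7.69 to 8.51 and 6.03 to 6.20 FPKM. *Dusp12* had a log2 fold change of -0.37 in each region, with adjusted p-values of 0.199 and 0.214. *Dusp14* and *Dusp11* had 0.34 and 0.26 in the cortex (adjusted p of 0.114 for each). *Dusp9*, an ERK-selective relative of *Dusp6* named after its values were seen, did not pass the filter in either region, at 0.0407 to 0.517 FPKM.

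Among the 18 immediate-early genes, 4 rose in the cortex at an adjusted p under 0.05 in limma (*Egr3*, *Homer1*, *Bdnf* and *Fosb*), and none passed in the hippocampus. Over all genes tested, 0.562% rose at this threshold in the cortex and 0.0285% passed it in the hippocampus. The count of immediate-early genes in the cortex was 2 without IR 1 and 6 without Con 1, and 3 for each other library left out. Their median log2 fold change was 0.81 in cortex tissue and 0.12 in hippocampal tissue. *Nr4a3*, *Fosl2* and *Egr1* had 0.86, 0.96 and 1.12 in the cortex (adjusted p of 0.113, 0.135 and 0.210), and all their IR libraries were above all Con libraries. *Dusp6* had a log2 fold change close to the median of these genes, and that of *Dusp4* lay below it.

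**Figure D4:**
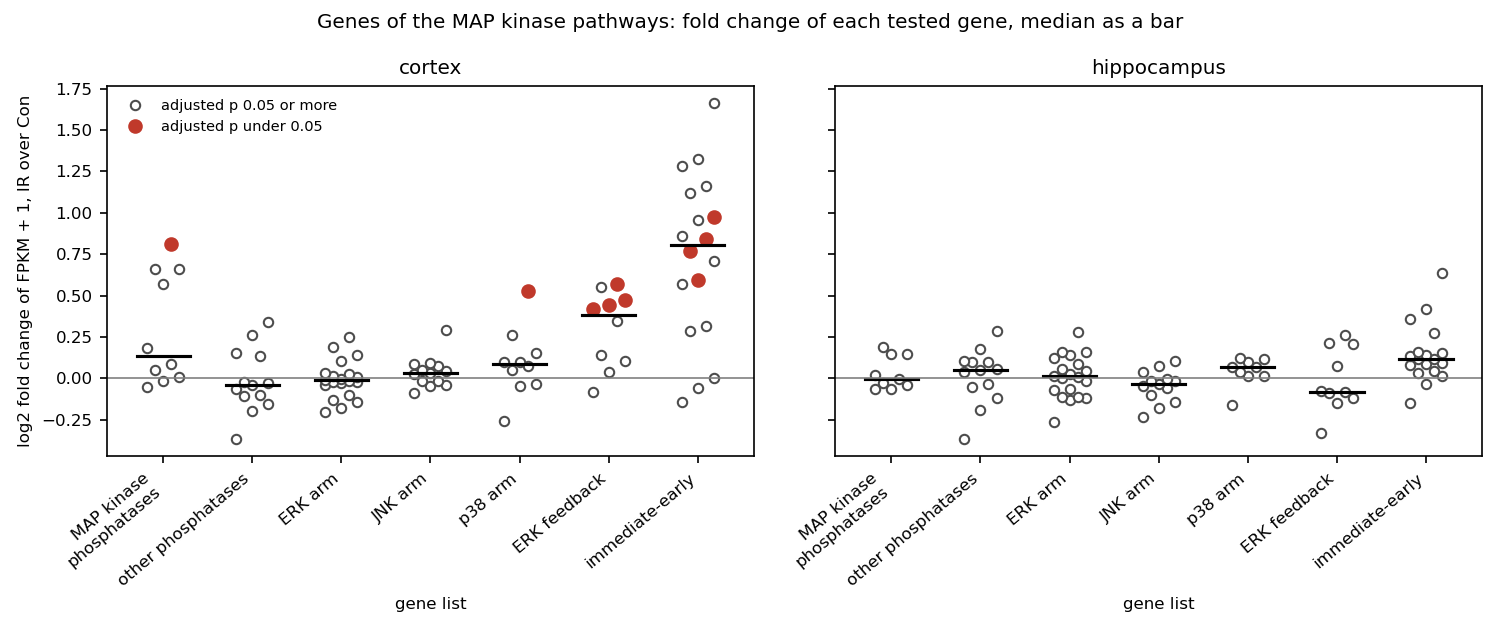
Log2 fold change of FPKM + 1, IR over Con (vertical axis), of each tested gene in 7 lists of MAP kinase pathway genes, in the cortex (left) and hippocampus (right); filled red points have an adjusted p under 0.05 in limma and bars give the median. In the cortex the red points are 1 phosphatase, 1 p38 arm gene, 4 ERK feedback genes and 4 immediate-early genes, and in the hippocampus there are none.

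The markers of the labelled tissues were present: the 7 cortex neuron markers summed to 234 to 271 FPKM in cortex libraries and 61.7 to 76.0 FPKM in hippocampus libraries, while the 7 hippocampus neuron markers summed to 7.62 to 14.2 and 156 to 188 FPKM. Choroid plexus markers summed to 439 FPKM in IR 2 of the cortex, 1061 FPKM in Con 2 and 1649 FPKM in IR 1 of the hippocampus, and 3.50 to 66.2 FPKM in the other libraries. Without IR 2 of the cortex the log2 fold change of *Dusp6* was 0.83. Microglia markers summed to 136 to 146 FPKM in the Con cortex and 102 to 137 FPKM in IR, and of the 8 markers 0 passed in the cortex and 1, *Csf1r*, fell in the hippocampus (log2 fold change -0.84, adjusted p of 0.0126 in limma). Endothelial markers summed to 77.6 to 91.3 FPKM in the Con cortex and 94.6 to 108 FPKM in IR, and oligodendrocyte markers to 1092 to 1348 and 1353 to 1633 FPKM. Astrocyte markers summed to 551 to 594 and 572 to 620 FPKM, and meningeal fibroblast markers to 29.2 to 43.9 and 23.4 to 38.4 FPKM. Their part in the values of the phosphatase genes was not tested. In these bulk samples, a change in the number of cells of a type and a change in RNA per cell cannot be told apart.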

How the data were processed

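RNA of cortex and hippocampus was sequenced from 12 libraries, 3 in each of 4 groups, and grouped by the labels alone. The authors trimmed paired reads, aligned them with TopHat and made FPKM values with Cufflinks and a geometric normalization in edgeR, and the deposited files hold FPKM for 23183 gene symbols. The build named in the submitters' processing notes is mm10, and the annotation and tool versions are not given in the sources used here. The labels name Trizol for RNA extraction and the methods a column kit, so the extraction is uncertain. No pair of libraries was identical.

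Genes that reached 0.5 FPKM in 3 or more libraries of a fit were tested on log2(FPKM + 1) with limma 3.58.1 in R 4.3.3 (intensity trend, robust prior, Benjamini-Hochberg over all tested genes), in each region and for the interaction over the 12 libraries. A fold change on this scale understates that of low genes. The fit was tested on simulated data. With 3 against 3 libraries, an exact permutation test cannot go below a p of 0.1, so no single-gene permutation test was used. The members and the gene lists were chosen with earlier results of these data known.

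The text names the 10 members and, from each list, the genes with an adjusted p under 0.05 and at most 3 more with the smallest unadjusted p in either region, with *Dusp9* added after its values were seen. It also names the 5 genes with the highest correlation to each of *Dusp1*, *Dusp4*, *Dusp5* and *Dusp6*. The values of some genes of the lists are not reported here.

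Read counts were not used here. In genes with 1 transcript, FPKM times length fell on steps of 1 fragment, which gave an estimate of 15400000 to 17500000 fragments per library. Counting errors from it cover counting only. FPKM sums were 359773 to 393447, and each library had a median ratio of 0.995 to 1.02 to the geometric mean of all. Alternatives were another pseudocount, other filters, quantile normalization, another variance prior, a replicate block, a single fit of both regions, ratios of means and leaving out each library. Positions came from GENCODE M21 on GRCm38. Python 3.11.15 and matplotlib 3.10.9 made the figures.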

Additional observations from a re-analysis of the deposited data

Results flagged for a closer look

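No phosphatase gene had a called difference between regions. In 4 genes of the pathway lists, the effect of irradiation differed between the cortex and hippocampus by the interaction term itself at an adjusted p under 0.05 in limma. The interaction, on the log2 scale and as hippocampus minus cortex, was -0.93 for *Egr3* and -0.81 for *Homer1*. It was -0.74 for *Bdnf* and -0.65 for *Etv5*, the ERK-induced transcription factor. *Etv5* measured 18.1, 18.3 and 21.9 FPKM in the Con hippocampus and 18.4, 17.7 and 18.5 FPKM in the IR hippocampus, and its 3 IR libraries in the cortex were all above the 3 Con libraries. The count of such genes among the 18 immediate-early genes was 3, and it was 0 when Con 1, Con 3 or any IR library of the cortex, or IR 1 or IR 2 of the hippocampus, was left out. *Etv5* was the only called ERK feedback gene of 10, and that count was 0 when Con 1, Con 3 or any IR library of the cortex, or Con 2 or any IR library of the hippocampus, was left out, and 4 without Con 3 of the hippocampus. Both counts were 0 with the replicate block and without the intensity trend and robust prior, and that of the ERK feedback genes also with no filter on low values.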

How the results depend on the processing

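*Dusp6* kept its direction in the cortex under every alternative. The count of phosphatase genes called in the cortex was 1, and it became 0 with no filter on low values, 0 without the intensity trend and robust prior, 2 in the single fit of 12 libraries (adding *Dusp4*) and 0 to 1 when a library was left out. The call was lost when any IR library was left out and kept when any Con library was left out. The cause was not tested for any setting. With a replicate block the count was 3 (*Dusp6* at an adjusted p of 0.0270, *Dusp4* at 0.0395 and *Dusp5* at 0.0381 in limma). The block gave 0 in the hippocampus and 0 for the interaction. The numbers were not taken as pairing, since the labels do not give it. The correlation of deviations between same-numbered Con and IR libraries averaged -0.02 for cortex and -0.20 for hippocampus. Sham and irradiated mice were separate groups, so these values do not bear on whether libraries share a mouse. Between same-numbered cortex and hippocampus libraries the correlation averaged 0.054 in Con (-0.040 to 0.18) and 0.014 in IR (-0.054 to 0.11). These are taken over all genes and cannot show whether the regions of a number came from 1 mouse. The 1.5-fold criterion in the cortex gave 2 genes, 3 with ratios of means, and 1 to 4 when a library was left out (1 without Con 1, 4 without Con 3). No phosphatase gene was called in the hippocampus in any setting. The interaction gave 0 to 1 when a library was left out (*Dusp4* without Con 3 of the hippocampus).

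Signs turned with quantile normalization for *Dusp2* in the cortex (0.0086) and for *Dusp4* (0.0033) and *Dusp8* (0.0078) in the hippocampus. Leaving out a library turned signs for uncalled genes, with ranges of -0.087 to 0.037 (*Dusp2*), -0.015 to 0.11 (*Dusp7*) and -0.087 to 0.098 (*Dusp16*) in the cortex, -0.098 to 0.10 (*Dusp4*), -0.10 to 0.034 (*Dusp8*) and -0.017 to 0.055 (*Dusp10*) in the hippocampus, and -0.19 to 0.029 (*Dusp2*), -0.048 to 0.089 (*Dusp8*) and -0.17 to 0.020 (*Dusp16*) for the interaction. Over all genes, calls in the cortex numbered 102, and 24 with no filter, 22 without trend and robust prior and 16 to 78 with a library left out. In the hippocampus they numbered 4, 880 without Con 3 and 0 without any 1 of the IR libraries. Called ERK feedback genes in the cortex numbered 4 and at fewest 1. Depth limits *Dusp2*, with an estimated 11 to 26 fragments per library.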
